A study of Mus musculus with 26 samples.

Results

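Acyl-CoA thioesterases cut the bond between a fatty acid and coenzyme A. The 7 Acot genes described here, Acot1, Acot2, Acot3, Acot4, Acot8, Acot12 and Acot13, were picked by gene symbol, with the best expressed transcript standing for each, out of 22322 gene symbols measured in mouse liver. The family was put together with earlier results of these data known, Acot3 being among the genes that differed most between genotypes at CT12 in the Bmal1 experiment. In that experiment contrasts that contain the CT12 livers therefore serve here for description, with no test on the members.

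RNA was sequenced from 20 livers of mice aged 8 weeks, taken after 2 days in constant darkness at circadian time 12 h (CT12) or 0 h (CT0). The Bmal1 experiment held 12 libraries, 3 each from livers labelled Bmal1 knockout and from C57BL/6 wild-type controls at each time, and the knockout is described as restricted to the liver. The Nr1d1 experiment held 8 libraries, 2 each from livers labelled Nr1d1 knockout and from C57BL/6 controls at each time, and its replicate 2 is the only one labelled paired-end. The allele and the Cre driver of the Bmal1 mice, and the allele of the Nr1d1 mice, go unstated (not given in the sources used here). Values are RPKM, which divide reads by transcript length and by library depth, so levels can be compared between genes.

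Saturated and unsaturated fatty acids enter most reactions as coenzyme A esters, and thioesterases return them to the free acid, which sets coenzyme A free for further use. Acot1 to Acot4 form a compact family of related enzymes placed in different compartments: ACOT1 in the cytosol, ACOT2 in mitochondria, ACOT3 and ACOT4 in peroxisomes. Several of them are textbook targets of PPARA, the fatty acid receptor of the liver, and rise on fasting. ACOT8 (peroxisomal, with a broad range of substrates), ACOT12 (a cytosolic acetyl-CoA hydrolase) and ACOT13 (also called THEM2, a long-chain enzyme associated with mitochondria) belong to a separate structural class. BMAL1, encoded by Arntl, is the activator of the circadian clock and binds E-boxes as a partner of CLOCK, while Nr1d1 encodes the repressor REV-ERB alpha.

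In the RefSeq annotation of mouse build GRCm38.p6, chromosome 12 carries Acot2, Acot1, Acot4, Acot3, Acot5 and Acot6 next to each other in this order, Acot8 lies on chromosome 2, and Acot12 and Acot13 lie on chromosome 13. The deposited values rest on build mm9, so no coordinate was carried between them. The 250 bases before the start are shown for the neighbours Acot4 and Acot3. Their log2 values had the highest correlation of any pair of members over the 12 Bmal1 livers (r = 0.96). That r includes the differences between groups, among them the CT12 contrast that led to the family. With group means removed, Acot2 and Acot4 were closer (r = 0.93, against 0.86). Both are on the plus strand, at chr12:84038129-84038378 for Acot4 and chr12:84051894-84052143 for the more upstream start listed for Acot3, and capitals mark the motifs found.
Acot4: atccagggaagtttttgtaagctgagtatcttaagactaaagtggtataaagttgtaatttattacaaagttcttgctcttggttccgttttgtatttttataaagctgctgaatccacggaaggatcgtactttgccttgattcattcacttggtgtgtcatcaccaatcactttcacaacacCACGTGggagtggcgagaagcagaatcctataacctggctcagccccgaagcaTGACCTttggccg
Acot3: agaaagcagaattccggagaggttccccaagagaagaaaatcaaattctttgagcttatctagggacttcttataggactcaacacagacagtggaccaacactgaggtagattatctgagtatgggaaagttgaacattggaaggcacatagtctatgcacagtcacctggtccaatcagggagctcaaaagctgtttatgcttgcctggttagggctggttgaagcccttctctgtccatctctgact
The first capitals of Acot4 are the E-box CACGTG, 66 bases before the start, and the second are the nuclear receptor core element AGGTCA on the other strand, read as TGACCT, 13 bases before it. The Acot3 window held none of the 5 motifs searched on both strands. Of 32851 promoters of the same length, 6.02% held the E-box and 14.0% the core element. The other 3 motifs were the peroxisome proliferator response element, the RORE NNTAGGTCA and the D-box TTANNTAA, found in 0.338%, 2.21% and 5.43% of promoters. The RORE is an extended form of the core element, and the peroxisome proliferator response element is built from core elements like it. Among the 6 members with a promoter entry, the only other match was a core element 110 bases before the start of Acot12, and Acot1, Acot2 and Acot8 had none.

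The targeted genes were checked first. Arntl stood at 3.59 to 4.37 RPKM in livers labelled Bmal1 knockout and at 0.680 to 1.26 RPKM in controls at CT12. At CT0 it stood at 5.73 to 7.45 RPKM in livers labelled Bmal1 knockout and at 15.7 to 16.4 RPKM in controls. At CT12 Nr1d1 had 11.1 and 28.4 RPKM in the libraries labelled Nr1d1 knockout (replicates 1 and 2), against 3.45 and 33.4 RPKM in controls, and at CT0 6.10 and 32.9 RPKM against 0.374 and 22.0 RPKM in controls. It was lower in the library labelled knockout in replicate 2 at CT12 and higher in the other 3 pairs. A value over the whole transcript does not check the deletion of a part of it, so both groups are called by their labels throughout. With 1 transcript kept per gene symbol, a Bmal1 library summed to 432657 to 479396 RPKM. The Nr1d1 libraries summed to 588418 to 875424 RPKM in replicate 1 and 2099302 to 2211054 RPKM in replicate 2. Levels in the Nr1d1 experiment are therefore compared within a replicate.

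Over the 12 Bmal1 livers, ACOT12 and ACOT13 had the most abundant messages of the family, with means of 43.8 RPKM for Acot12 and 26.4 RPKM for Acot13. Acot8 averaged 6.34 RPKM, Acot1 4.80 RPKM, Acot4 4.53 RPKM, Acot3 2.54 RPKM and Acot2 1.02 RPKM. The ranges over livers of Acot8, Acot1, Acot4 and Acot3 overlapped, and that of Acot2 overlapped those of Acot1, Acot3 and Acot4. Below Acot13 the pooled ranges thus set only Acot8 above Acot2. Compared within each liver, Acot1 and Acot4 also lay above Acot2 throughout. In livers labelled Bmal1 knockout at CT12, Acot3 (mean 0.304 RPKM) lay below Acot2 (mean 0.749 RPKM). The steadiest member was Acot8, whose highest liver was 1.38 times its lowest. Acot1 spanned 12.9-fold between its lowest and highest liver, and Acot3 ranged between 0 and 12.8 RPKM. The deposited values do not say how reads shared by near-identical paralogs were counted, and this holds for all Acot1, Acot2, Acot3 and Acot4 values.

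At CT12 in the Bmal1 experiment, Acot3, Acot1 and Acot4 had low values in livers labelled Bmal1 knockout, Acot3 most of all. Acot3 had 0.112, 0.326 and 0.474 RPKM in the livers labelled Bmal1 knockout, against 7.72, 3.45 and 12.8 RPKM in controls. The groups lay far apart, and the knockout mean was 26.3-fold lower. As whole reads recovered from the values, which are fixed only up to a multiple shared by all livers, Acot3 had 3, 8 and 12 reads in the livers labelled Bmal1 knockout and 231, 94 and 319 reads in controls.

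Acot1, the cytosolic enzyme, had 0.934, 1.07 and 3.33 RPKM in the livers labelled Bmal1 knockout, against 8.71, 3.67 and 12.1 RPKM in controls at CT12. Acot4, the peroxisomal enzyme that also cuts succinyl-CoA, had 2.24, 1.62 and 3.27 RPKM in the livers labelled Bmal1 knockout, against 7.23, 5.80 and 12.3 RPKM in controls. Neither gene's groups overlapped, though for Acot1 the highest liver labelled knockout came close to the lowest control. Acot2, the mitochondrial enzyme, had 0.537, 0.378 and 1.33 RPKM in the livers labelled Bmal1 knockout, against 1.27, 0.837 and 2.14 RPKM in controls, and its groups overlapped.

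Of the members outside the cluster, Acot13 had 22.5, 23.0 and 22.7 RPKM in the livers labelled Bmal1 knockout, against 35.2, 32.7 and 29.6 RPKM in controls at CT12. The livers labelled knockout were close together, with an SD of 0.27 RPKM, and all lay below every control. Acot8 averaged 5.72 ± 0.51 RPKM in livers labelled Bmal1 knockout and 6.66 ± 0.69 RPKM in controls (SD, n = 3 each). Acot12 averaged 51.0 ± 6.7 RPKM in livers labelled Bmal1 knockout and 52.5 ± 6.4 RPKM in controls (SD, n = 3 each). Both of these had overlapping groups.

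**Figure D1:**
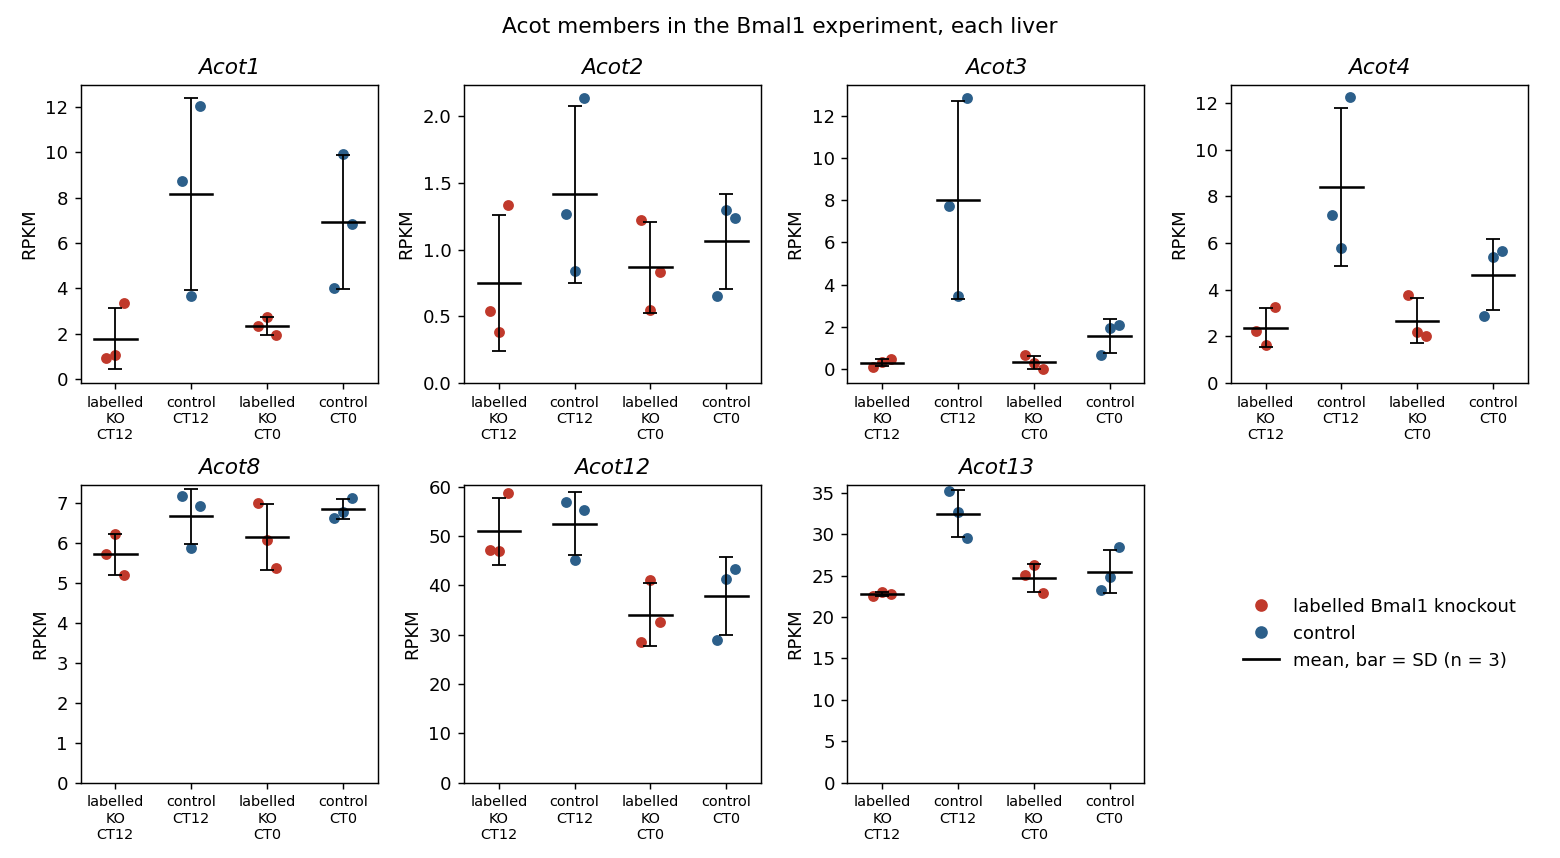
RPKM of each member in every liver of the Bmal1 experiment (points), with the group mean and its SD (n = 3 each), livers labelled Bmal1 knockout in red and controls in blue, at CT12 and CT0. Acot3 lies at 0.112 to 0.474 RPKM in the livers labelled knockout at CT12 and at 3.45 to 12.8 RPKM in controls, while Acot12 overlaps between genotypes at both times.

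On the log2(RPKM + 0.5) scale, which understates the differences of low genes, the fitted difference between livers labelled Bmal1 knockout and controls at CT12 was -3.26 ± 0.45 (SE) for Acot3, -1.94 ± 0.45 for Acot1 and -1.61 ± 0.32 for Acot4. It was -0.63 ± 0.32 for Acot2, -0.50 ± 0.10 for Acot13, -0.20 ± 0.12 for Acot8 and -0.04 ± 0.17 for Acot12. Acot1, Acot3, Acot4 and Acot13 had groups that did not overlap, as did 8.03% of the 11439 genes tested downwards. Since this contrast had a part in the choice of the family, these values are descriptive and no test is given. The Acot3 difference was -4.25 with 0.1 and -2.65 with 1 added to RPKM in place of 0.5.

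At CT0 the contrast of livers labelled Bmal1 knockout with controls was tested (limma, Benjamini-Hochberg adjusted p under 0.05), and no member passed. The estimate of spread in this fit came from all Bmal1 livers, those of CT12 included. Acot3 had 0.651, 0.265 and 0 RPKM in the livers labelled Bmal1 knockout, against 0.657, 1.93 and 2.11 RPKM in controls. The liver listed at 0 had no recovered read of Acot3, and the highest liver labelled knockout lay just under the lowest control. The log2 difference was -1.35 ± 0.45 (SE; limma adjusted p = 0.184, every liver labelled knockout lower than every control).

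Acot1 had 2.32, 2.75 and 1.96 RPKM in the livers labelled Bmal1 knockout at CT0, against 4.01, 9.92 and 6.83 RPKM in controls. Its groups were clear of each other, with a log2 difference of -1.31 ± 0.45 (SE; limma adjusted p = 0.198). Acot4 had 3.78, 2.21 and 2.03 RPKM in the livers labelled Bmal1 knockout, against 2.89, 5.38 and 5.68 RPKM in controls. Here replicate 1 of each genotype broke the separation, and the log2 difference was -0.69 ± 0.32 (SE; limma adjusted p = 0.373). For Acot2, Acot8, Acot12 and Acot13 it lay between -0.19 and -0.04.

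Of 11439 genes tested at CT0, 1.62% passed (0.708% downwards and 0.909% upwards), against 0 of the 7 members. Acot1 and Acot3 were the members whose groups did not overlap, both lower in livers labelled Bmal1 knockout, beside 9.07% of all genes in that direction. The median log2 difference of the 7 members was -0.19, beside 0.01 over all genes tested.

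Acot12 and Acot13 had overlapping groups at CT0. Acot13 averaged 24.7 ± 1.7 RPKM in livers labelled Bmal1 knockout and 25.5 ± 2.6 RPKM in controls (SD, n = 3 each). Acot12 averaged 34.0 ± 6.4 RPKM in livers labelled Bmal1 knockout and 37.9 ± 7.9 RPKM in controls (SD, n = 3 each). With standard errors of 0.10 for Acot13 and 0.17 for Acot12 on the log2 scale, small differences were not detectable in either.

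Between the time points, the control livers of the Bmal1 experiment showed higher Acot3, Acot4, Acot12 and Acot13 at CT12. Acot3 averaged 8.00 ± 4.70 RPKM at CT12 and 1.56 ± 0.79 RPKM at CT0 in controls (SD, n = 3 each), with no overlap and a 5.12-fold ratio of means. The corresponding log2 differences were 1.96 ± 0.45 (SE) for Acot3, 0.78 ± 0.32 for Acot4, 0.48 ± 0.17 for Acot12 and 0.35 ± 0.10 for Acot13, and the groups of all 4 were separate, as were those of 10.7% of all genes in this direction. These are descriptive too, since the contrast contains the CT12 controls. Acot1 (0.16 ± 0.45), Acot2 (0.27 ± 0.32) and Acot8 (-0.04 ± 0.12) had differences within or near their standard errors.

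In livers labelled Bmal1 knockout, Acot3 averaged 0.304 ± 0.182 RPKM at CT12 and 0.306 ± 0.328 RPKM at CT0 (SD, n = 3 each). The higher CT12 level of the controls was thus not seen in these livers. Acot13 differed by -0.12 ± 0.10 (SE, log2) between CT12 and CT0 and Acot4 by -0.14 ± 0.32. Acot12 was the member with separate groups, at 47.2, 47.0 and 58.8 RPKM at CT12, against 28.5, 41.0 and 32.5 RPKM at CT0, a log2 difference of 0.58 ± 0.17, beside 11.4% of all genes with separate groups in this direction. The genotype difference at CT12 minus that at CT0 came to -1.91 ± 0.63 for Acot3 and -0.46 ± 0.14 for Acot13 on the log2 scale, given without a test because it contains the CT12 livers.

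The livers of the Nr1d1 experiment are other animals than those whose values led to the family, and its comparisons were tested. At CT12 Acot3 again had the lowest ratio of the members. It had 5.39 RPKM in the replicate 1 liver labelled Nr1d1 knockout, against 51.9 RPKM in its control, and 36.6 RPKM in the replicate 2 liver labelled knockout, against 235 RPKM in its control. The knockout value was 9.61-fold lower in replicate 1 and 6.42-fold lower in replicate 2. The log2 difference was -2.91 ± 0.96 (SE), which did not pass when adjusted over all genes (limma adjusted p = 0.884, lower in both replicates). Fitted on the CT12 groups alone it did pass (limma adjusted p = 0.0108), and it passed under no other alternative. That fit had only the 2 livers of each CT12 group to estimate the spread. It called 38 genes, against 5 in the fit of all groups.

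Acot4 had 6.47 and 35.1 RPKM in the livers labelled Nr1d1 knockout at CT12 (replicates 1 and 2), against 14.6 and 67.9 RPKM in controls. Acot1 had 13.6 and 27.4 RPKM in the livers labelled Nr1d1 knockout, against 16.0 and 66.2 RPKM in controls. In both genes the liver labelled knockout was the lower one of each replicate, with log2 differences of -1.03 ± 0.39 and -0.74 ± 0.47 (SE; limma adjusted p = 1 for each). Acot2, Acot12 and Acot13 were also lower in both replicates, by -0.43 ± 0.35, -0.36 ± 0.26 and -0.20 ± 0.21. Acot8 had 9.06 and 32.0 RPKM in the livers labelled Nr1d1 knockout, against 7.89 and 39.6 RPKM in controls, so its replicates went opposite ways. Without replicate 2 of the livers labelled knockout at CT12, the differences of Acot1, Acot2, Acot8 and Acot12 turned positive, at 0.0766, 0.0588, 0.2975 and 0.0114. That group was then a single liver, set against both controls through the replicate difference fitted over the other groups. Within replicate 1 itself the liver labelled knockout stayed lower for Acot1, Acot2 (6.01 against 7.33 RPKM) and Acot12 (34.8 against 37.8 RPKM).

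In total 6 of the 7 members were lower in both replicates of the livers labelled Nr1d1 knockout at CT12, beside 23.5% of the 12738 genes tested. These members vary together from liver to liver, so the 6 are not separate observations. Called genes made up 0.0393% of those tested at CT12, and no member was among them. The median log2 difference was -0.43 for the members and 0.04 over all genes.

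**Figure D2:**
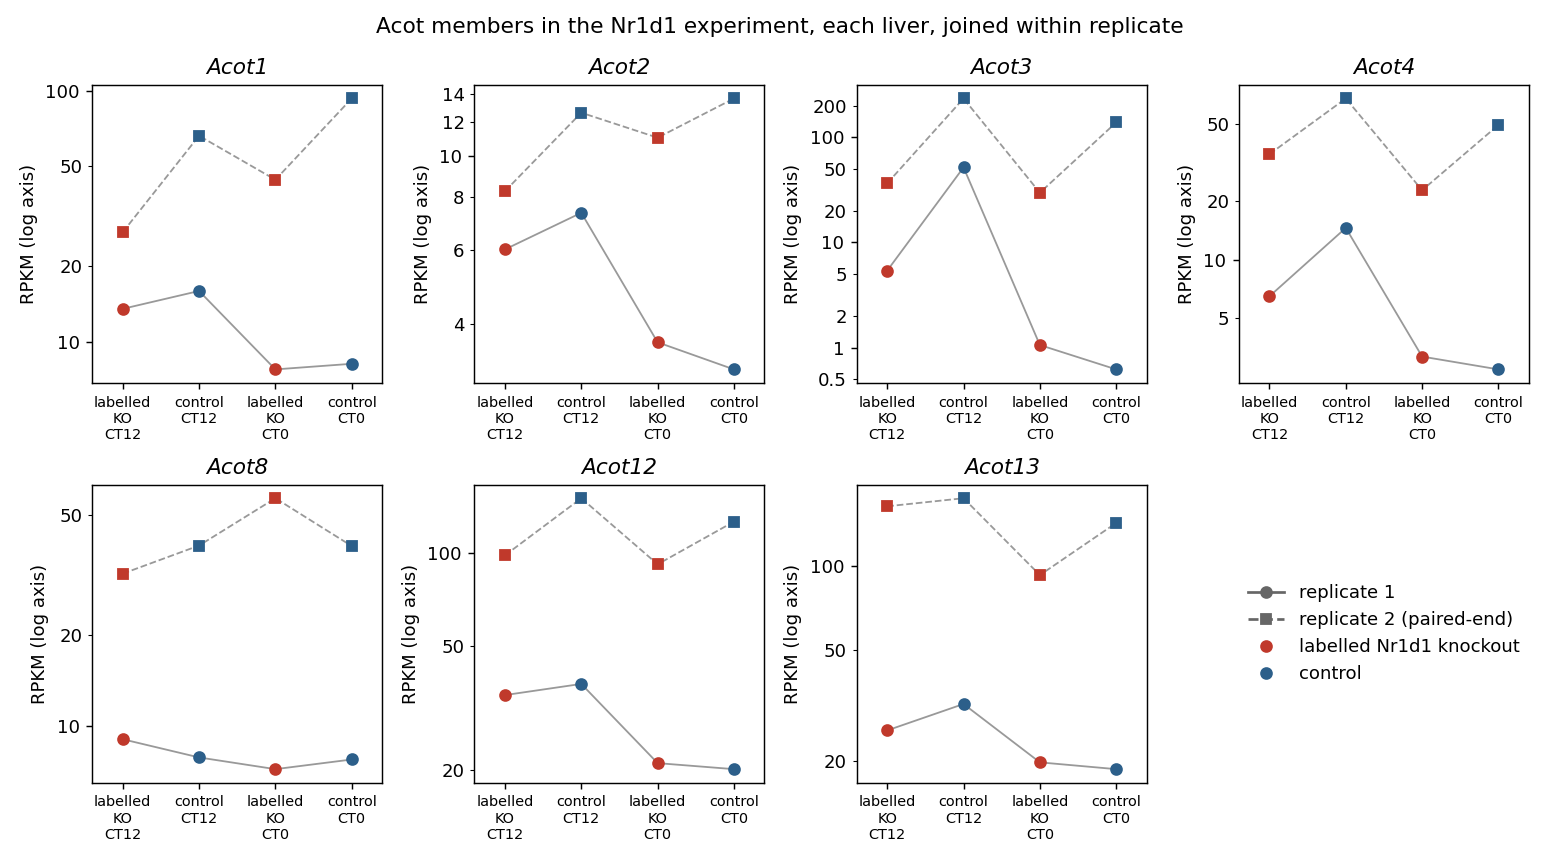
RPKM on a log axis of each member in every liver of the Nr1d1 experiment, joined within replicate 1 (circles) and replicate 2 (squares, paired-end), livers labelled Nr1d1 knockout in red and controls in blue. At CT12 Acot3 lies at 5.39 and 36.6 RPKM in the livers labelled knockout, below 51.9 and 235 RPKM in the controls of the same replicate.

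At CT0 the replicates of the Nr1d1 experiment did not go the same way. Acot3 had 1.06 RPKM in the replicate 1 liver labelled Nr1d1 knockout, against 0.619 RPKM in its control, and 29.8 RPKM in the replicate 2 liver, against 139 RPKM in its control. Thus the liver labelled knockout was higher in replicate 1 and 4.67-fold lower in replicate 2, and the log2 difference was -0.86 ± 0.96 (SE; limma adjusted p = 0.913). Acot1 was the member lower in both replicates, with 7.78 and 44.2 RPKM in the livers labelled Nr1d1 knockout, against 8.19 and 93.2 RPKM in controls, beside 33.2% of all genes lower in both. No gene of the 12738 was called at CT0 (0.0%; 575 had an unadjusted limma p under 0.05). Without control replicate 2 the differences of Acot1, Acot2, Acot3, Acot4 and Acot12 at CT0 changed sign. The CT0 control group was then a single liver, set against both livers labelled knockout through the replicate difference fitted over the other groups. Within replicate 1 itself Acot1 stayed lower in the liver labelled knockout. The genotype by time interaction gave -2.04 ± 1.36 (SE, log2) for Acot3 (limma adjusted p = 0.964), and no gene was called by it (538 had an unadjusted limma p under 0.05).

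Control replicate 1 of the Nr1d1 experiment had very different Acot3 values at the 2 times, with 51.9 RPKM at CT12 and 0.619 RPKM at CT0, an 83.8-fold ratio. Control replicate 2 had 235 RPKM at CT12 and 139 RPKM at CT0, a 1.69-fold ratio. CT12 was the higher time in both, but by very unequal amounts, and the log2 difference was 3.15 ± 0.96 (SE; limma adjusted p = 0.415). In the livers labelled Nr1d1 knockout the ratios of CT12 to CT0 were 5.11 in replicate 1 and 1.23 in replicate 2, a log2 difference of 1.11 ± 0.96 (SE; limma adjusted p = 0.64). Acot4 went the same way in controls, by 1.34 ± 0.39 (SE, log2; limma adjusted p = 0.389). Without control replicate 2 at CT0 these log2 differences in controls were 5.11 for Acot3 and 2.12 for Acot4. The CT0 control group was then a single liver, so these values rest on 1 library.

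Acot3, Acot4, Acot12 and Acot13 were higher at CT12 in both replicates of the livers labelled Nr1d1 knockout, and these 4 with Acot8 in both replicates of the controls. The share of all genes that did so was 47.0% in the livers labelled knockout and 36.9% in controls, so this direction was common there. For Acot8 the control values were close to equal, 7.89 and 39.6 RPKM at CT12 and 7.76 and 39.5 RPKM at CT0, and its sign turned with median-of-ratios scaling and with quantile normalization. Called genes were 0.055% of all in the livers labelled knockout and 0.353% in controls, none of them members.

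**Figure D3:**
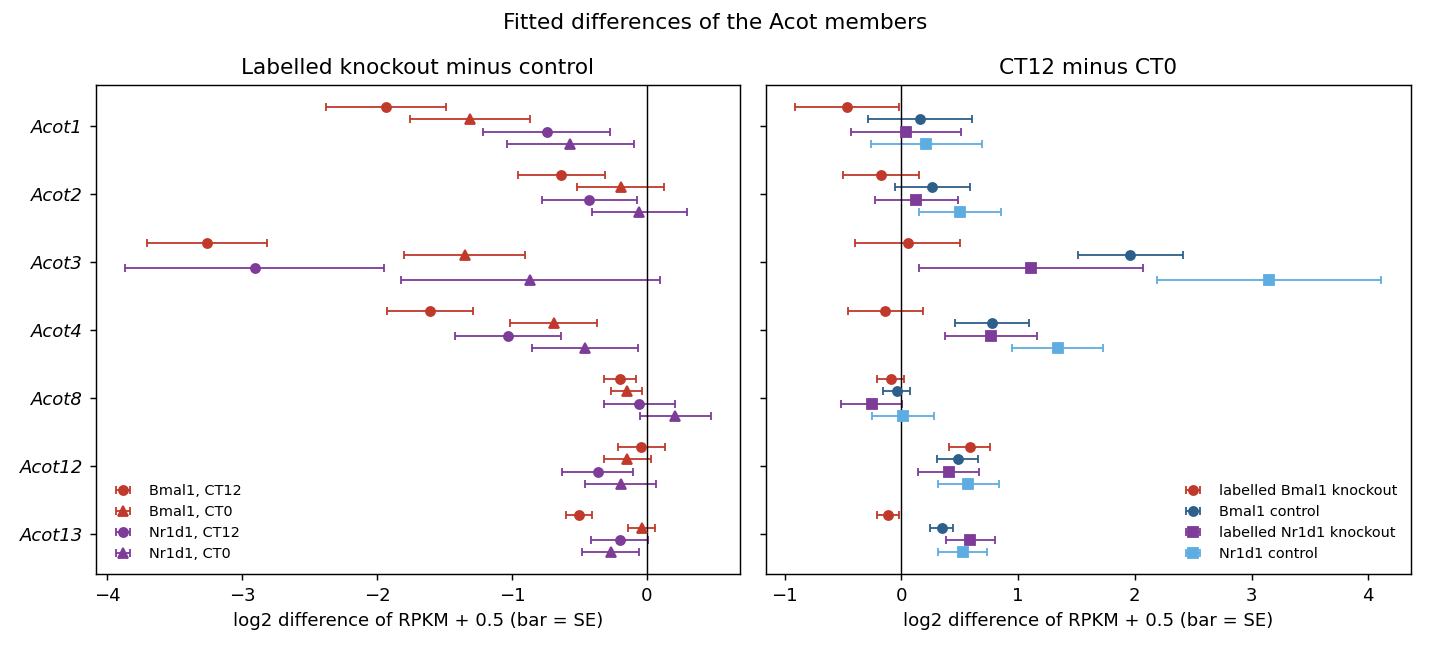
Fitted log2 differences of RPKM + 0.5 with their SE for each member: livers labelled knockout minus controls at each time in both experiments (left) and CT12 minus CT0 in each genotype (right). Acot3 lies farthest from 0 at CT12 on the left, at -3.26 in the Bmal1 and -2.91 in the Nr1d1 experiment, and Acot8 stays near 0 in both panels.

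The neighbouring genes followed each other from liver to liver within a group, and genes outside the row did so too. The choice of the family did not use this. In the CT12 controls of the Bmal1 experiment, replicate 3 was the highest and replicate 2 the lowest liver for Acot1, Acot2, Acot3 and Acot4 alike, with a highest to lowest ratio of 2.11 for Acot4 and 3.72 for Acot3. In the livers labelled Bmal1 knockout at CT12, replicate 3 was the highest for all 4, and in CT0 controls replicate 1 was the lowest for all 4. In the livers labelled Bmal1 knockout at CT0 the orders differed. The shared extremes of the other groups were not particular to the row. Acot12 on chromosome 13 had them too, except that replicate 1 was its highest CT12 control. Cyp4a10, a fatty acid hydroxylase outside the family, had all of them. Its CT12 controls stood at 209.7, 80.31 and 358.5 RPKM (replicates 1, 2 and 3).

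After the group means were removed, the correlation (Pearson's r of log2 values over the 12 Bmal1 livers) of Acot3 was 0.86 with Acot4, 0.80 with Acot1 and 0.75 with Acot2, and that of Acot2 with Acot4 was 0.93. Members on other chromosomes were not all less alike: r was 0.76 between Acot1 and Acot12, 0.66 between Acot3 and Acot8 and 0.54 between Acot3 and Acot12, while Acot13 had 0.23 with Acot3 and 0.07 with Acot4. Over the 8 Nr1d1 livers, with replicate means removed but not group means, r of Acot3 was 0.98 with Acot4, 0.93 with Acot12, 0.89 with Acot2, 0.79 with Acot13, 0.77 with Acot1 and -0.03 with Acot8. The genes of a liver share its library and depth, paralogs may share reads, and no test was made of these values. The second transcript of Acot3 ran at 0.707 to 0.817 of the one used in the 19 libraries where both were above 0, so the choice of transcript shifted the level and hardly the pattern.

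**Figure D4:**
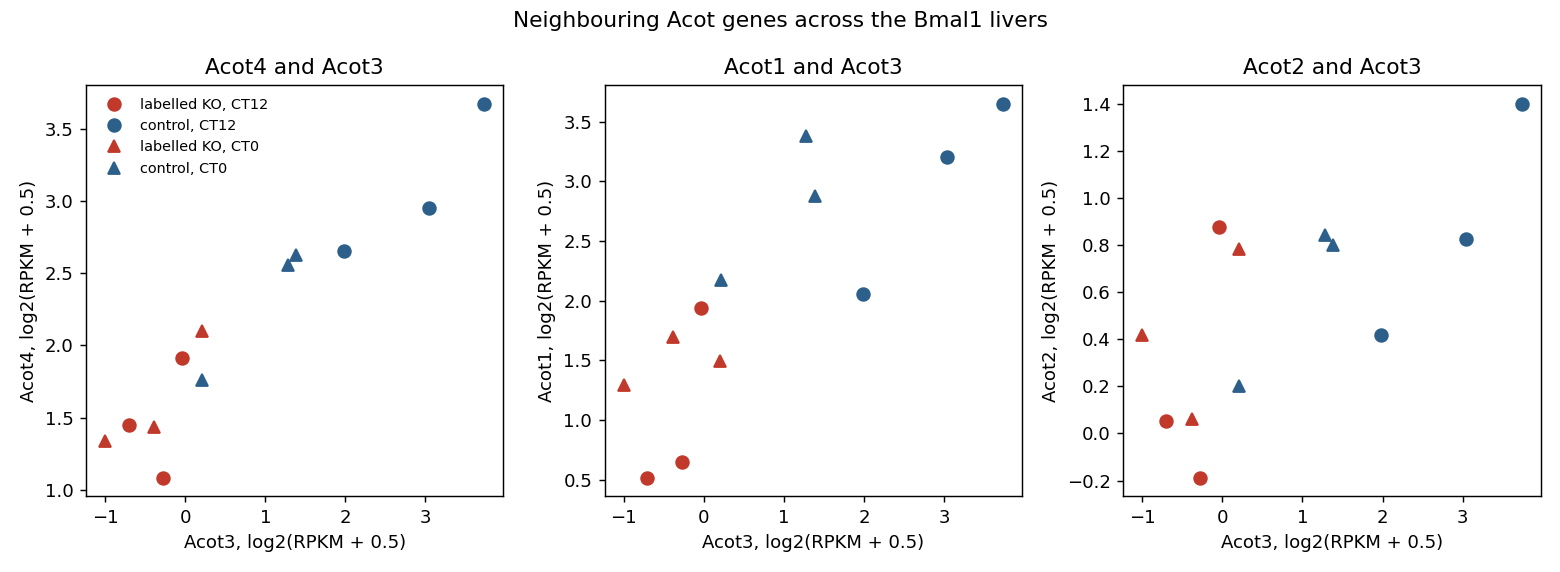
Acot4, Acot1 and Acot2 against Acot3 in the 12 livers of the Bmal1 experiment, on the log2(RPKM + 0.5) scale, circles for CT12, triangles for CT0, red for livers labelled Bmal1 knockout and blue for controls. The CT12 controls lie at the upper right and Acot4 runs closest to Acot3, with r = 0.86 within groups.

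By the same measure without removal of group means, the genes outside the family most like Acot3 over the 12 Bmal1 livers were Serpina6 (r = 0.96), Abhd6 (0.96), Cyp2a4 (0.96), Aldh3a2 (0.95) and Fads2 (0.95), as high as Acot4 (0.96). Within groups their r was 0.73, 0.73, 0.66, 0.88 and 0.71. In the Nr1d1 livers with replicate means removed it was 0.62, 0.87, 0.78, 0.98 and 0.69. Aldh3a2, a fatty aldehyde dehydrogenase, was thus close to Acot3 in each view. Its values at CT12 were 19.1, 27.8 and 37.6 RPKM in the livers labelled Bmal1 knockout, against 108, 88.2 and 146 RPKM in controls. At CT0 they were 31.0, 23.4 and 20.3 RPKM in the livers labelled Bmal1 knockout, against 54.9, 81.7 and 75.6 RPKM in controls. In both, the groups lay well apart. Aldh3a2 was picked here for its likeness to Acot3 over these same livers, so a difference of this kind was part of the choice. It also belongs to the PPARA target list counted below, where its calls are no independent result.

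Around the family, a list of PPARA target genes was counted, chosen with results of these data known and without the members. At CT12, 2 of its 46 tested genes rose and 10 fell in the livers labelled Bmal1 knockout, and at CT0 none rose and 6 fell. Aldh3a2 is among those that fell at both times. Having been picked above for its likeness to Acot3, it is no separate observation. Of all genes tested, 6.46% rose and 3.22% fell at CT12, and 0.909% rose and 0.708% fell at CT0, which is the background for the counts of every list here. The largest at CT12 were Cyp4a10 (a fatty acid omega-hydroxylase; log2 difference -2.08 ± 0.59, SE), Aldh3a2 and Pdk4 (a kinase that restrains pyruvate dehydrogenase; 1.53 ± 0.26). At CT0 they were Aldh3a2, Acaa1b (a peroxisomal thiolase; -1.24 ± 0.25) and Retsat (a retinol saturase; -1.21 ± 0.25). The median log2 difference of the list was -0.43 at CT12 and -0.37 at CT0, beside 0.09 and 0.01 over all genes tested.

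Among 14 tested genes for PPARA and its partners, 1 fell at CT0 and it was Ppara itself, with 23.0, 25.4 and 23.2 RPKM in the livers labelled Bmal1 knockout, against 36.9, 37.5 and 37.1 RPKM in controls (log2 difference -0.63 ± 0.12, SE; limma adjusted p = 0.0253). At CT12 Ppara had 24.6, 28.0 and 36.2 RPKM in the livers labelled Bmal1 knockout, against 56.6, 62.7 and 65.0 RPKM in controls, a log2 difference of -1.06 ± 0.12 (SE; limma adjusted p = 0.000167). The groups were separate at both times. At CT12 Ppard, a related receptor, rose by 1.59 ± 0.27, and Pparg, the receptor best known from fat cells, fell by 0.92 ± 0.21 (SE, log2). In the Nr1d1 experiment none of the 49 PPARA targets or 14 partners passed between genotypes at either time (limma; all genes called numbered 5 at CT12 and 0 at CT0).

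The list of peroxisomal acyl-CoA oxidation and transport, 29 genes, had 3 risen and 4 fallen at CT12 and 1 risen and 3 fallen at CT0 in the livers labelled Bmal1 knockout. Acaa1b and Acaa1a, both thiolases, fell at both times, Acaa1a by 1.00 ± 0.15 at CT12 and by 0.78 ± 0.15 at CT0 (SE, log2), and Crot, a carnitine acyltransferase, rose by 1.38 ± 0.30 at CT12. Of the acyl-CoA synthetases, which run the opposite reaction to the thioesterases, 3 of 16 fell at CT12 and 1 of 16 at CT0, and none rose. The 3 at CT12 were Acsf2 (-0.67 ± 0.13), Acsm5 (-0.63 ± 0.17) and Acsm3 (-0.47 ± 0.13), and the 1 at CT0 was Acsf2 (-0.84 ± 0.13; SE, log2). None of the 17 genes of coenzyme A synthesis and breakdown passed between genotypes at either time, and 1 of 8 acyl-CoA binding proteins, Fabp1, fell at CT12 by 1.05 ± 0.29. The peroxisomal list shares genes with the PPARA targets, so the counts are not independent.

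Of the other thioesterases, 10 of which could be tested in the Bmal1 experiment, 2 rose and 1 fell at CT12 in the livers labelled Bmal1 knockout, and none passed at CT0. The gene that fell was Acot7, an enzyme best known from brain, with 6.67, 5.91 and 6.09 RPKM in the livers labelled Bmal1 knockout, against 9.79, 10.1 and 11.1 RPKM in controls (log2 difference -0.69 ± 0.11, SE; limma adjusted p = 0.00139). The genes that rose were Acnat2 (2.11 ± 0.39) and Acnat1 (0.66 ± 0.11), which encode peroxisomal acyltransferases that join fatty acids to amino acids. Acot6, the last gene of the chromosome 12 row and below the filter (chosen after its values were seen), had 0.348, 0.290 and 0.367 RPKM in the livers labelled Bmal1 knockout at CT12, against 0.0915, 0.141 and 0.154 RPKM in controls, higher in every liver labelled knockout. At CT0 its groups overlapped, at 0.386 to 0.475 RPKM in livers labelled Bmal1 knockout and 0.210 to 0.419 RPKM in controls. Acot5, the next neighbour of Acot3, was listed at 0 in all Bmal1 libraries. In the Nr1d1 libraries at CT12 it had 0.0793 and 2.40 RPKM in the livers labelled Nr1d1 knockout, against 0.646 and 11.4 RPKM in controls, lower in both replicates, with a log2 difference of -1.51 ± 0.39 (SE; limma adjusted p = 0.597). The replicate 1 values are low. How reads shared with Acot3 and other paralogs were counted is unknown for Acot5 and Acot6 too, so Acot5 may not be a separate observation.

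In bulk liver, fewer cells of a type and less RNA per cell cannot be told apart. The summed RPKM of 6 hepatocyte markers was 25000 to 28200 in livers labelled Bmal1 knockout and 37200 to 45100 in controls at CT12, and 27900 to 33300 and 44400 to 49600 at CT0, with all 6 above 0. That of 7 neutrophil markers was 17.8 to 46.3 in livers labelled Bmal1 knockout and 5.94 to 8.80 in controls at CT12, and 104 to 219 and 32.2 to 112 at CT0, with all 7 above 0. At CT12 the sums of 5 erythroid markers, 207 to 259 in livers labelled Bmal1 knockout and 95.2 to 169 in controls, and of 5 stellate or fibroblast markers, 101 to 133 and 83.2 to 99.3, were apart as well, while at CT0 they overlapped, at 179 to 192 and 137 to 328, and at 148 to 177 and 115 to 161. The sums for Kupffer cells, endothelium, bile duct cells and lymphocytes overlapped at both times. The part of these lists in the differences of the members was not tested. At CT12 of the Nr1d1 experiment the hepatocyte sum was 53100 and 282000 in livers labelled Nr1d1 knockout and 52600 and 269000 in controls, and the neutrophil sum 1.71 to 10.7 and 1.64 to 2.43. Markers of fat cells (5 genes) summed to 0 in livers labelled Bmal1 knockout and to at most 0.256 RPKM in controls, and Adipoq, Plin1, Lep, Retn and Cfd were all at 0 in the livers labelled knockout.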

How the data were processed

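The authors deposited RPKM per Ensembl transcript, with mouse build mm9, TopHat2, Bowtie and bedtools 2.19.1 named in the submitters' processing notes (Bowtie is not named for replicate 2 of the Nr1d1 experiment). The annotation release, strand setting, depth used for scaling and treatment of reads shared by paralogs could not be taken from the sources used here. The 4C data were not used.

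From these values, 46585 transcripts found in every library were reduced to 22322 symbols, keeping the transcript with the highest mean log2(RPKM + 0.5). With limma 3.58.1 in R 4.3.3 (mean trend, empirical Bayes, two-sided), 4 group means were fitted per experiment to genes whose mean RPKM reached 0.5, which were 11439 in the Bmal1 and 12738 in the Nr1d1 experiment. Adjustment was by Benjamini-Hochberg over all genes of a contrast, and genes under 0.05 were called. All 7 members passed the filter in both experiments. In the Nr1d1 experiment the replicate number was a block: same-numbered livers deviated together from their group means (r = 0.82 to 0.88 across genes), and replicate 2 alone is labelled paired-end. In the Bmal1 experiment the same r was -0.06 to 0.12, and no block was used. RPKM is a normalized value, so no count test was run. In the Bmal1 experiment, whole reads within 0.05 were recovered for 98.6% of 38493 transcripts and summed to 3.61 to 5.97 M per library (M, in units of 1e6), leaving out abundant genes and known up to a factor per transcript. The reads behind the Nr1d1 values were not recovered, so their depth is unknown. The labels describe separate mice, and p-values measure the spread between them. In the Nr1d1 experiment this is the spread left after the replicate difference was taken out.

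Members and lists were chosen with earlier results of these data known. Named genes were the members, the targeted genes and the 3 largest called differences of each list counted. The 5 genes (mean RPKM of at least 1) most correlated with Acot3, the member of widest span, were named too. Acot5, Acot6, Acot11 and the Ppara, Acaa1a and Cyp4a10 values beyond that rule were chosen after their values were seen. The values of 1 list gene that the rule names are not reported here. Promoters are from RefSeq (GRCm38.p6), with an entry for 6 of the 7 members. The alternatives were pseudocounts of 0.1 and 1, no filter, median-of-ratios and quantile scaling, RPKM summed over transcripts, each library left out, the replicate block and the compared groups alone.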

Additional observations from a re-analysis of the deposited data

How the results depend on the processing

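No member was called between genotypes at CT0 in the Bmal1 experiment under any alternative run. All genes called numbered 185 between genotypes at CT0 (116 without the filter, 108 with the compared groups alone, 82 to 209 without 1 library, lowest without control replicate 2 at CT0), 1107 at CT12 (713 to 1242, lowest without control replicate 3 at CT12), 1239 between times in controls (633 to 1370, lowest without control replicate 3 at CT12) and 217 in livers labelled knockout (25 with the compared groups alone, 48 to 232 without 1 library, lowest without knockout replicate 3 at CT0). The CT12 genotype calls split into 739 higher and 368 lower, against 484 and 550 with median-of-ratios scaling, and the control time calls into 389 and 850, against 648 and 595. With the replicate block, 172, 1041, 1161 and 180 genes were called in these 4 contrasts; the numbers do not pair the Bmal1 livers.

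In the Nr1d1 experiment the counts were small and unstable. Leaving out 1 library there left a single liver in its group. Between genotypes at CT0 there were 0 calls, against 1 with median-of-ratios scaling, 6 with the compared groups alone and 0 to 3 without 1 library. At CT12 there were 5, against 2 with median-of-ratios or quantile scaling, 1 with a pseudocount of 1, 0 without the filter, 0 with RPKM summed over transcripts, 38 with the compared groups alone (1 member called) and 0 to 4 without 1 library. Between times in controls there were 45, against 8 without the filter, 127 with the compared groups alone and 11 to 66 without 1 library (0 to 2 members). In livers labelled knockout there were 7, against 4 with median-of-ratios or quantile scaling, 1 without the filter, 3 with a pseudocount of 0.1, 148 with the compared groups alone and 1 to 22 without 1 library. The interaction gave 0, and 0 to 4 without 1 library. With no replicate block every Nr1d1 contrast had 0 calls. Median-of-ratios scaling moved the median of all genes between times in livers labelled Nr1d1 knockout to 0.03, against 0.16 without it.

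Signs turned in tested contrasts where the member was not called, and over the alternatives also in Bmal1 contrasts described without a test: at CT12, livers labelled knockout against controls, Acot12 ran between -0.148 and 0.0196, between times in controls Acot1 between -0.178 and 0.618 and Acot8 between -0.093 and 0.0427, and between times in livers labelled knockout Acot2 between -0.488 and 0.0426, Acot3 between -0.249 and 0.352 and Acot4 between -0.354 and 0.0988. In the Nr1d1 experiment, Acot2 at CT0 turned to 0.0562 with quantile scaling, Acot8 between times in controls to -0.0921 (median-of-ratios) and -0.1228 (quantile), and between times in livers labelled knockout Acot1 to -0.1117 and -0.0989 and Acot2 to -0.0035 and -0.0707 under the same settings. Without 1 library, between Bmal1 genotypes at CT0 the ranges were Acot13 -0.102 to 0.0392. Between Nr1d1 genotypes at CT0 the ranges were Acot1 -1.38 to 0.241, Acot2 -0.596 to 0.485, Acot3 -2.83 to 1.10, Acot4 -1.24 to 0.323, Acot8 -0.187 to 0.608 and Acot12 -0.581 to 0.188. Between Nr1d1 genotypes at CT12 the ranges were Acot1 -1.56 to 0.0766, Acot2 -0.914 to 0.0588, Acot8 -0.413 to 0.297 and Acot12 -0.740 to 0.0114. Between times in Nr1d1 controls the ranges were Acot1 -0.593 to 1.02, Acot2 -0.0382 to 1.04 and Acot8 -0.0131 to 0.0396. Between times in livers labelled Nr1d1 knockout the ranges were Acot1 -0.780 to 0.860, Acot2 -0.357 to 0.617 and Acot8 -0.652 to 0.142. The cause of these moves was not tested.

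The number of livers, 3 or 2 per group, limits the precision, and Acot3 rests on at most 18 recovered reads in each liver labelled Bmal1 knockout.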

Other observations

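Acot11, a thioesterase best known from brown fat and chosen here after its values were seen, had 11.8, 1.28 and 0.529 RPKM in livers labelled Bmal1 knockout at CT0, against 2.08, 2.07 and 2.87 RPKM in controls. Replicate 1 of the livers labelled knockout stood above every other Bmal1 liver, whose highest value was 3.43 RPKM. Ucp1, the defining gene of brown fat, was at 0 in all 4 Bmal1 groups. In the Nr1d1 experiment at CT0, Acot11 had 5.20 and 20.9 RPKM in the livers labelled Nr1d1 knockout, against 1.62 and 13.1 RPKM in controls, with a log2 difference of 1.04 ± 0.24 (SE; limma adjusted p = 0.873). It was higher in both replicates and did not pass the adjustment.

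Acnat2 had 35.9, 17.97 and 32.8 RPKM in livers labelled Bmal1 knockout at CT12, against 5.71, 3.57 and 10.5 RPKM in controls, with every liver labelled knockout above every control. In the Nr1d1 experiment at CT12 it had 63.6 and 156 RPKM in the livers labelled Nr1d1 knockout, against 31.3 and 74.1 RPKM in controls. It was higher in both replicates, with a log2 difference of 1.04 ± 0.59 (SE) that did not pass the adjustment. At CT0 it had 33.2 and 140 RPKM in the livers labelled Nr1d1 knockout, against 13.6 and 226 RPKM in controls, and the replicates went opposite ways.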
